A study of Rattus norvegicus with 12 samples.

Results

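A set of 5 red cell genes was followed through every sample of a rat brain RNA sequencing study: Hbb, Hbb-b1 and Hba-a1, which encode chains of hemoglobin, Alas2, an enzyme of heme synthesis, and Slc4a1, a protein of the red cell membrane. They are 5 of the 18800 gene symbols in the count table, and all 5 passed the filter on low counts. They were picked by name as readouts of blood left in the tissue, with their values in these samples already known, so their levels are a description: no p-value is given for them, and counts of calls stand beside the share over all genes. The samples were brain tissue of Sprague-Dawley rats, with no region or side named. Every group was restrained in the same way and for as long, and the control group had neither operation nor needles named in its labels, although its 3 columns are called Sham. The model group had MCAO/R, a blockage and reopening of the middle cerebral artery. The electroacupuncture group had MCAO/R and current through needles at the Tianfu, Chize, Kongzui and Taiyuan acupoints of the Lung Meridian of the foreleg. Not given in the sources used here are ages, time points and whether the brains were flushed free of blood. Neuronal Snap25, myelin Mbp and astrocytic Gfap, the markers read as a check of the tissue, were present in every sample, at 1120 to 4910 CPM, 16900 to 50000 CPM and 502 to 2260 CPM.

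Hemoglobin carries oxygen and is built from alpha and beta chains, each holding a heme group. Rats carry several alpha and several beta genes side by side, so their transcripts are hard to tell apart in short reads. Young red cells, the reticulocytes, keep globin messenger RNA after they lose their nucleus, and small amounts of globin transcript have also been described in neurons. Alas2 makes the first and rate-limiting step of heme synthesis in red cell precursors, while other cells use Alas1. Slc4a1, also called band 3, exchanges chloride for bicarbonate across the red cell membrane and anchors its skeleton. In erythroid cells such genes are driven by GATA1, which binds GATA motifs, and by KLF1, which binds CACCC-like motifs.

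Promoters are shown for the erythroid motifs, since Hbb, Hbb-b1, Alas2 and Slc4a1 moved together across the samples, and Hba-a1, which followed them less closely, serves for comparison. RefSeq windows in build GRCr8 were matched for 4 of the 5 genes, all but Slc4a1: Hbb at chr1:167663722-167663971 on the minus strand, Hbb-b1 at chr1:167643521-167643770 on the minus strand, Hba-a1 at chr10:15842581-15842830 on the minus strand and Alas2 at chrX:22895200-22895449 on the plus strand. Each sequence is the 250 bases before the annotated start, 5′ to 3′ on the gene's own strand, and capitals mark a match on either strand to a GATA motif (AGATAA, or its other form TGATAA) or to the CACCC-like motif CCNCNCCC.
Hbb: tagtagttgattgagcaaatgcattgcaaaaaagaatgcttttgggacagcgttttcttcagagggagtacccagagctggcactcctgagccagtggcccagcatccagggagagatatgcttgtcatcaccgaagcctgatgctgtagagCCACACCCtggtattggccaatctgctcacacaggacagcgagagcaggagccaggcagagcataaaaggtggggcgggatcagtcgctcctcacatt
Hbb-b1: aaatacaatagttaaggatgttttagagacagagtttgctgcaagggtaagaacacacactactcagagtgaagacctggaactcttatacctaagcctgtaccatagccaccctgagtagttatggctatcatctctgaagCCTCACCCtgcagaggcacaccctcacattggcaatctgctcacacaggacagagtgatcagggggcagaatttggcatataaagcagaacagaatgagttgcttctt
Hba-a1: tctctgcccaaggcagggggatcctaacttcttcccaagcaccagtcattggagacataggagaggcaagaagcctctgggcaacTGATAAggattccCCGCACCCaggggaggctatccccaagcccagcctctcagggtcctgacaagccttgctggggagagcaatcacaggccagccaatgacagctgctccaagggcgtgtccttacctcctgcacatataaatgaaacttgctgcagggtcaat
Alas2: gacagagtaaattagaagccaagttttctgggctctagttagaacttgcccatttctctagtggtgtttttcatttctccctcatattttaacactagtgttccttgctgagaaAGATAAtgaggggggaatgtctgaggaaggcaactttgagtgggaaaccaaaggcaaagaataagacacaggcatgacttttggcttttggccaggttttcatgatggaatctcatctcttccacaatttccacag
The Hbb window held CCACACCC at -98 to -91 from the start, and the Hbb-b1 window CCTCACCC at -108 to -101. Hba-a1 had both kinds, TGATAA at -165 to -160 and CCGCACCC at -152 to -145. Alas2 had AGATAA at -136 to -131. These letters are common: of 33469 rat promoter windows of the same length, 42.8% held CCNCNCCC, 16.9% either GATA motif and 4.3% both kinds. The matches are a description of the letters and not evidence of binding.

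The 11 columns of estimated counts were reduced to 8 samples, because 3 pairs of columns, each within a group, differed by less than 2 times the sampling variance and each pair was summed. This left 3 control samples (A to C), 2 model samples (A and B) and 3 electroacupuncture samples (A to C), with 9335913 to 23835724 counts in each. The labels do not say that these came from separate animals, and p-values therefore measure a spread that may be technical. Levels are CPM, counts scaled to a common library size with TMM factors. Within the near-identical columns Hbb was close, at 360 and 328.7 CPM in the 2 columns of model A, 1799 and 1802 CPM in those of model B, and 1154 and 1180 CPM in those of electroacupuncture B. Electroacupuncture C stood apart from all other samples in globin RNA, so group means and differences are given with and without it.

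All globin rows together took 0.924%, 0.343% and 0.594% of the counts in the control samples, always given in the order A to C. They took 0.215% and 0.833% in the model samples (A, then B). In the electroacupuncture samples (A to C) they took 0.763%, 0.611% and 0.0177%. Binomial intervals (95%, exact) were narrow even in electroacupuncture C, at 0.0168% to 0.0185%, and cover counting error only. Control A was thus highest and electroacupuncture C lowest, while model A and model B, from the same treatment, lay near the low and the high end of the other samples. In bulk tissue, fewer red cells and less globin RNA per cell cannot be told apart.

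**Figure D1:**
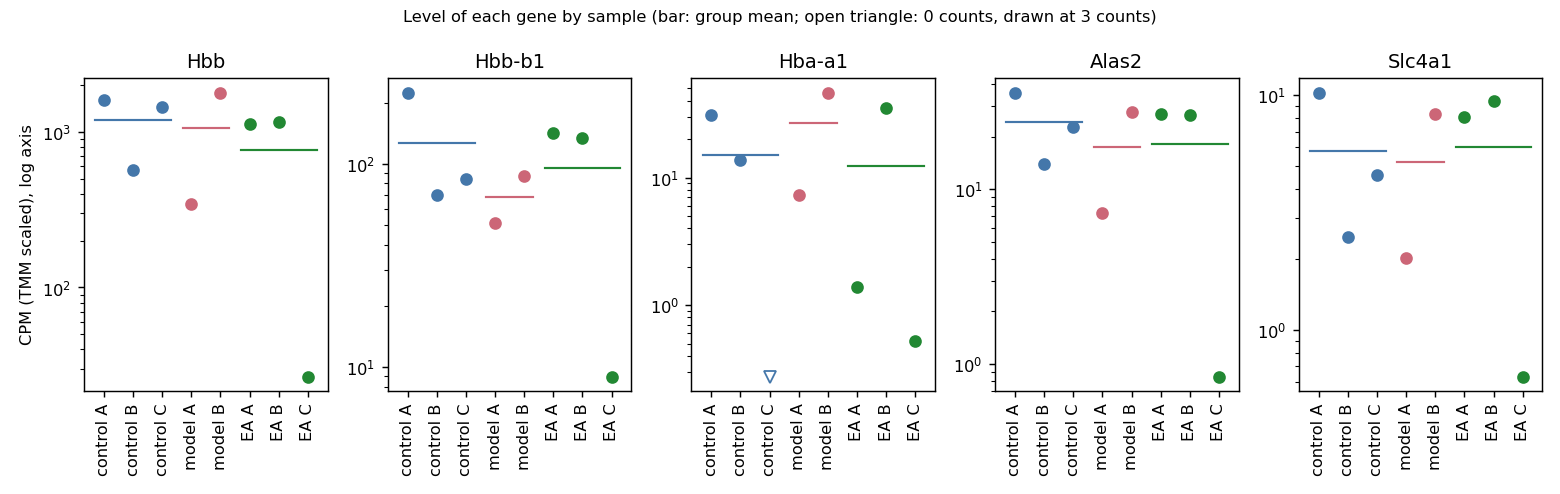
Level of each of the 5 genes (CPM, log axis) in the 8 samples, with each group's mean as a bar (EA: electroacupuncture). Electroacupuncture C is the lowest sample for Hbb, Hbb-b1, Alas2 and Slc4a1, and control C, with 0 counts, is drawn for Hba-a1 at the floor of 3 counts (0.275 CPM).

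Hbb, the major adult beta chain, measured 1600, 566.2 and 1439 CPM in the controls. It measured 342.6 and 1792 CPM in the model samples and 1125, 1162 and 26.68 CPM in the electroacupuncture samples. The model samples lay on both sides of every control, and electroacupuncture C was below all 7 others. The median of those 7 was 43.6 times the level of electroacupuncture C, and the lowest of them, model A, 12.8 times. The control mean was 1202 ± 556.2 CPM (SD, n = 3), the model mean 1067 ± 1025 CPM (SD, n = 2) and the electroacupuncture mean 771.2 ± 645.1 CPM (SD, n = 3). Without electroacupuncture C the last mean was 1144 ± 26.54 CPM (SD, n = 2).

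Hbb-b1, a second beta gene, measured 223.8, 70.48 and 84.1 CPM in the controls. It measured 50.96 and 86.99 CPM in the model samples and 142.4, 134.2 and 8.964 CPM in the electroacupuncture samples. Control A was highest and electroacupuncture C lowest, 9.7 times below the median of the others, and the groups overlapped. Controls averaged 126.1 ± 84.87 CPM (SD, n = 3), model samples 68.97 ± 25.48 CPM (SD, n = 2) and electroacupuncture samples 95.18 ± 74.77 CPM (SD, n = 3), or 138.3 ± 5.763 CPM (SD, n = 2) without electroacupuncture C.

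Hba-a1, an alpha chain row, measured 31.07, 13.64 and 0 CPM in the controls. It measured 7.234 and 46.26 CPM in the model samples and 1.388, 34.9 and 0.5273 CPM in the electroacupuncture samples. Here 3 samples were low, and control C and electroacupuncture A were low although their Hbb was high. The 0 in control C allows up to 0.275 CPM, the level of 3 counts. The group means were 14.9 ± 15.57 CPM (SD, n = 3), 26.75 ± 27.59 CPM (SD, n = 2) and 12.27 ± 19.6 CPM (SD, n = 3) in controls, model and electroacupuncture, the last 18.15 ± 23.7 CPM (SD, n = 2) without electroacupuncture C.

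Alas2 measured 35.84, 13.98 and 22.81 CPM in the controls. It measured 7.287 and 27.75 CPM in the model samples and 27.07, 26.7 and 0.8436 CPM in the electroacupuncture samples, the last from 8 counts. Its order across samples was close to that of Hbb, with control A and model B at the top and control B, model A and electroacupuncture C at the bottom. Controls averaged 24.21 ± 10.99 CPM (SD, n = 3), model samples 17.52 ± 14.47 CPM (SD, n = 2) and electroacupuncture samples 18.2 ± 15.03 CPM (SD, n = 3), or 26.88 ± 0.2611 CPM (SD, n = 2) without electroacupuncture C.

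Slc4a1 measured 10.26, 2.501 and 4.581 CPM in the controls. It measured 2.036 and 8.321 CPM in the model samples and 8.068, 9.438 and 0.6327 CPM in the electroacupuncture samples, the last from 6 counts. Again control B, model A and electroacupuncture C were the 3 lowest. Controls averaged 5.782 ± 4.019 CPM (SD, n = 3), model samples 5.179 ± 4.444 CPM (SD, n = 2) and electroacupuncture samples 6.046 ± 4.738 CPM (SD, n = 3), or 8.753 ± 0.9685 CPM (SD, n = 2) without electroacupuncture C.

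The level of 4 of the 5 genes rose and fell together from sample to sample. Across the 8 samples, Pearson's r of log2 CPM was 0.99 between Hbb and Alas2, 0.95 between Alas2 and Slc4a1 and 0.94 between Hbb and Hbb-b1. Without electroacupuncture C these were 0.95, 0.94 and 0.69 over 7 samples. Hba-a1 followed the others less closely, with r between 0.37 and 0.46 over 8 samples and between 0 and 0.26 over 7. The points share libraries and depth, so the coefficients are descriptions.

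In proportion to globin RNA, Alas2 varied much less than its level in CPM did. Per 1000 counts on alpha and beta globin rows it gave 3.81, 3.88 and 3.71 counts in the controls, 3.66 and 3.36 in the model samples, and 4.01, 4.34 and 4.57 in the electroacupuncture samples. The exact Poisson intervals of model B (3.07 to 3.66) and electroacupuncture B (4.01 to 4.7) did not overlap, so the ratio differed beyond counting error. The value of electroacupuncture C rests on 8 counts, with an exact Poisson interval of 1.97 to 9.01. So a sample with little globin RNA also had proportionally little Alas2 RNA. Slc4a1 gave 1.09, 0.694 and 0.745 counts per 1000 such counts in the controls and 1.02 and 1.01 in the model samples. It gave 1.2, 1.54 and 3.43 in the electroacupuncture samples. The last value rests on 6 counts, with an exact Poisson interval of 1.26 to 7.46. This interval overlaps those of control A (0.898 to 1.31), model A, electroacupuncture A and electroacupuncture B. It lies wholly above the intervals of control B, control C and model B, so it differed from these beyond counting error. The difference was not tested.

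The balance of beta to alpha globin also varied much less than the level of globin RNA did. The 4 beta rows (Hbb, Hbb-b1, LOC100134871 and LOC689064) held 29.3%, 27.7% and 28.6% of the counts on alpha and beta rows in the controls. They held 31.7% and 26.8% in the model samples, and 27.8%, 31.1% and 29.8% in the electroacupuncture samples. These are shares of counts, not per length, and are compared between samples only.

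Within the beta rows the samples fell into separate kinds that did not follow the groups. LOC100134871 is the gene now named Hbbl1 and LOC689064 the gene now named Hbb-bs in the RefSeq annotation of GRCr8. Hbb held 81.7% of the beta counts in control C and 81% in model B (exact 95% intervals 81.2% to 82.3% and 80.6% to 81.4%). In the 5 other samples with ample globin it held between 54.2% (model A) and 60.7% (electroacupuncture B). In electroacupuncture C it held 48.5% of 522 counts (44.1% to 52.8%).

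The other beta rows held less in the same 2 samples. Hbb-b1 held 4.78% in control C and 3.93% in model B, against 8.12% and 7.07% in control A and B, 8.06% in model A, 7.59% and 7.01% in electroacupuncture A and B, and 16.3% in electroacupuncture C. LOC100134871 held 9.09% and 9.33% in control C and model B, and between 22.6% and 25.9% in the other 6. LOC689064 held 4.42% and 5.75% there, and between 8.89% and 12.6% in the others. How reads matching several gene copies were counted (not given in the sources used here) can set such shares, and its part was not tested.

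**Figure D2:**
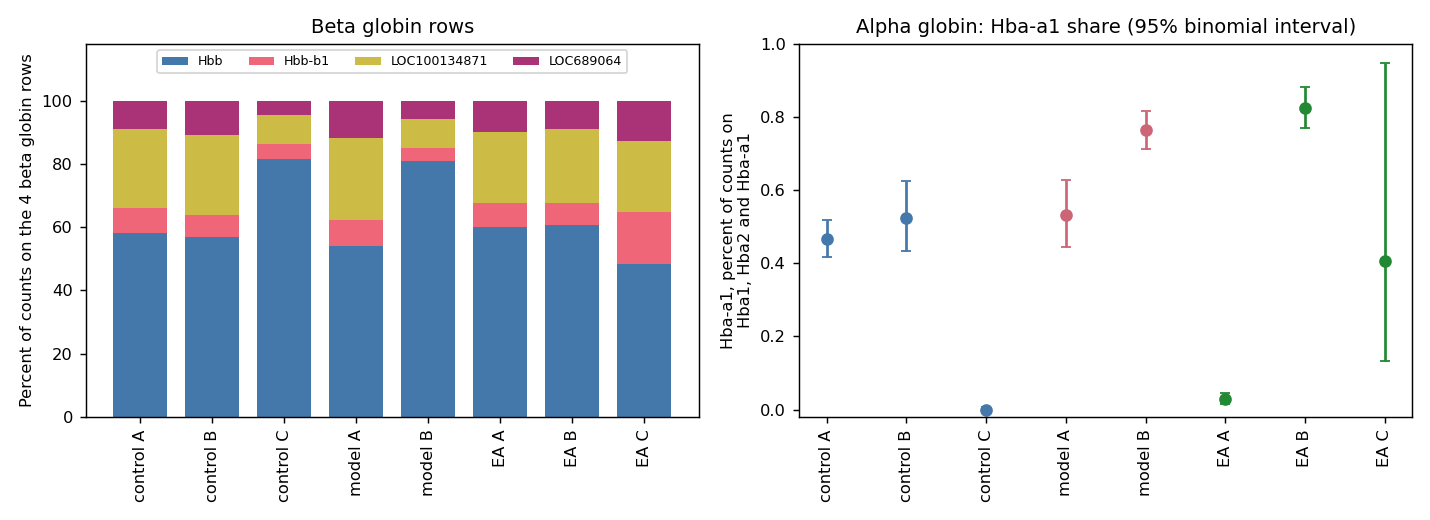
Left: percent of counts on the 4 beta globin rows held by each row, per sample. Control C and model B give Hbb 81.7% and 81%, and the other 6 samples between 48.5% and 60.7%. Right: Hba-a1 as a percent of the 3 alpha globin rows with exact 95% binomial intervals; it is at 0 in control C and at 0.0285% in electroacupuncture A.

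The alpha rows told another pair of samples apart. Most alpha counts lay on the rows Hba1 and Hba2, which are older names: RefSeq lists Hba1 as a synonym of 2 current genes, and Hba2 of 1. Hba-a1 is a current name, but RefSeq also lists it as a synonym of 2 genes. Whether the Hba-a1 row counts the gene whose promoter is shown was not tested. The level of Hba1 ran from 79.83 CPM in electroacupuncture C to 4119 CPM in control A, and that of Hba2 from 49.04 to 2506 CPM in the same samples. Hba-a1 held 0.467% and 0.523% of the alpha counts in control A and B, 0.531% and 0.764% in model A and B, 0.824% in electroacupuncture B and 0.407% in electroacupuncture C. In control C it held 0 of 47892 counts, which allows up to 0.00626% at the floor of 3 counts (the plotted exact 95% interval reaches 0.0077%), and in electroacupuncture A 0.0285% (exact 95% interval 0.0163% to 0.0463%). Hba2 held between 35.2% and 41.8% in 7 samples and 48.6% in model A. The low Hba-a1 row thus does not stand for low alpha globin in control C and electroacupuncture A, and the reason was not tested.

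Spread within the groups was large for all 5 genes. The within-group SD on the log2 scale was 2.18 for Hbb, 1.56 for Hbb-b1, 3.37 for Hba-a1, 1.89 for Alas2 and 1.56 for Slc4a1, against a median of 0.31 over the 15487 tested genes. By this SD, Hba-a1 ranked 46, Hbb 190, Alas2 283, Hbb-b1 491 and Slc4a1 494 of all tested genes. Over all 8 samples the highest level was 67.18 times the lowest for Hbb and 42.48 times for Alas2. Without electroacupuncture C these ratios were 5.231 and 4.918.

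Model samples were set against controls to ask what the operation changed. The log2 difference (model minus control) was -0.17 (SE 1.3) for Hbb, -0.87 (SE 1.03) for Hbb-b1, 0.84 (SE 1.93) for Hba-a1, -0.47 (SE 1.14) for Alas2 and -0.16 (SE 1.04) for Slc4a1. Each difference was smaller than its SE, and the sign for Hbb turned on 1 sample: it was -1.82 without model B and 0.57 without model A. By edgeR's quasi-likelihood test 0 of the 5 were called at a Benjamini-Hochberg adjusted p under 0.05, where 0.00646% of all tested genes were. In 0 of the 5 did the samples of the groups not overlap, against 37.8% of all genes. As the genes were chosen with these values known, nothing further is read from the counts.

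Electroacupuncture samples were set against model samples to ask what the needles changed in operated rats. The log2 difference (electroacupuncture minus model) was -0.47 (SE 1.28) for Hbb, 0.47 (SE 1.01) for Hbb-b1, -1.09 (SE 1.92) for Hba-a1, 0.06 (SE 1.12) for Alas2 and 0.24 (SE 1.04) for Slc4a1. Without electroacupuncture C the differences were 0.10, 1, -0.55, 0.62 and 0.76 in the same order, so the sign turned for Hbb. With 1 sample left out, the Hbb difference ran from -1.22 without model A to 1.17 without model B. Of the 5 genes, 0 were called and 0 had groups that did not overlap, with 0% and 24.6% over all genes. Hba-a1 moved most when a sample was left out, to -4.77 without electroacupuncture B.

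Electroacupuncture against control compares operated and treated rats with controls, and shares its samples with both other comparisons. The log2 difference (electroacupuncture minus control) was -0.64 (SE 1.16) for Hbb, -0.4 (SE 0.89) for Hbb-b1, -0.25 (SE 1.76) for Hba-a1, -0.4 (SE 1.01) for Alas2 and 0.08 (SE 0.93) for Slc4a1. Without electroacupuncture C the differences were -0.07, 0.13, 0.30, 0.15 and 0.60 in the same order, so the sign turned for Hbb-b1, Hba-a1 and Alas2. Here too 0 of 5 were called and 0 of 5 had groups that did not overlap, with 0% and 10.9% over all genes. With SEs between 0.89 and 1.93 over the 3 comparisons, a log2 difference of 1 in these genes was not detectable.

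Across all genes, edgeR called 1 gene in model against control (Camk2d, a kinase subunit, named after its call was seen) and 0 in each comparison with electroacupuncture. At an unadjusted p under 0.05 there were 2139, 2087 and 567 genes in the order above, and DESeq2 called 763, 689 and 1. Of the 117 tested genes on the lists of blood, heme, iron and vessel genes, edgeR called 0 in every comparison. Unadjusted p-values under 0.05 numbered 12 (10.3% of the list genes, 13.8% of all genes) in model against control, 10 (8.55%, 13.5%) in electroacupuncture against model and 9 (7.69%, 3.66%) in electroacupuncture against control. DESeq2 called 3, 3 and 0 of the list genes.

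All 7 other globin rows tested were lowest in electroacupuncture C, like 4 of the 5 genes. Of these rows 0 were called, and 1 was higher in estimate in the model than in controls (median log2 difference -0.38, with 0.017 over all genes). With electroacupuncture 3 were higher than in the model (median -0.12, all genes 0.034) and 0 higher than in controls (median -0.50, all genes 0.005). Their summed level ran from 2990 to 7620 CPM in controls, from 1610 to 6400 CPM in model samples and from 150 to 5520 CPM with electroacupuncture. Hbq1b, a theta globin, differed least, at 6.874, 5.457 and 3.848 CPM in controls, 6.162 and 7.226 CPM in model samples and 4.338, 5.186 and 2.004 CPM with electroacupuncture. Neither LOC103694855 nor LOC103694857 had a RefSeq match, although both are counted as globin rows here. LOC103694857 read 15 and 2.908 CPM in the 2 near-identical columns of electroacupuncture B, so the level of this row is uncertain. Its model samples (0.6966 and 3.449 CPM) lay below every control (6.413 to 10.72 CPM), and model and control samples did not overlap in 37.8% of all tested genes. Both LOC103694857 and Hbq1b are named after their values were seen.

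Of 20 other red cell genes listed, 18 were in the table, 13 were tested and 7 of these were lowest in electroacupuncture C. By edgeR 0 were called, with 8 higher in estimate in the model than in controls (median log2 difference 0.12) and 4 higher with electroacupuncture than in the model (median -0.29). Hemgn, an erythroid nuclear protein, measured 4.399, 1.364 and 2.748 CPM in controls, 1.286 and 3.558 CPM in model samples and 3.904, 2.933 and 0 CPM with electroacupuncture. Ahsp, which stabilizes free alpha chains, was also at 0 counts in electroacupuncture C and between 1.743 and 3.904 CPM in the other 7. Against the floor of 3 counts (0.316 CPM), the median of the other samples was at least 9.27-fold higher for Hemgn and at least 7.82-fold higher for Ahsp. Ahsp is named after its values were seen.

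The erythroid factors Klf1 and Tal1 and the membrane skeleton gene Add2 did not share this pattern. Klf1 measured 2.43 CPM in electroacupuncture C, inside the range of the others (2 to 4.55 CPM). Tal1, which endothelium also uses, measured 3.59 CPM there and 2.84 to 6.33 CPM in the others. Add2, a gene that neurons also express, measured 126 CPM there and 81.7 to 204 CPM in the others.

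Genes that brain cells also express but reticulocytes hold in abundance differed little between electroacupuncture C and the other samples. Of 16 tested, 3 were lowest in electroacupuncture C (Slc25a37, Bpgm and Epb41, named after their values were seen), as were 9.63% of all tested genes. Slc25a37, which imports iron into mitochondria, measured 6.01 CPM there and 6.43 to 11.9 CPM in the others, and Epb41 25.2 CPM against 25.8 to 77.5 CPM. The list gave 0 calls, with 7 higher in estimate in the model (median log2 difference -0.08) and 8 higher with electroacupuncture than in the model (median -0.02). Bnip3l, which clears mitochondria from maturing red cells, measured 166 CPM in electroacupuncture C and 128 to 200 CPM in the others. Dmtn, a protein of the membrane skeleton, measured 230 and 185 to 327 CPM, and Tmcc2 187 and 148 to 201 CPM.

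**Figure D3:**
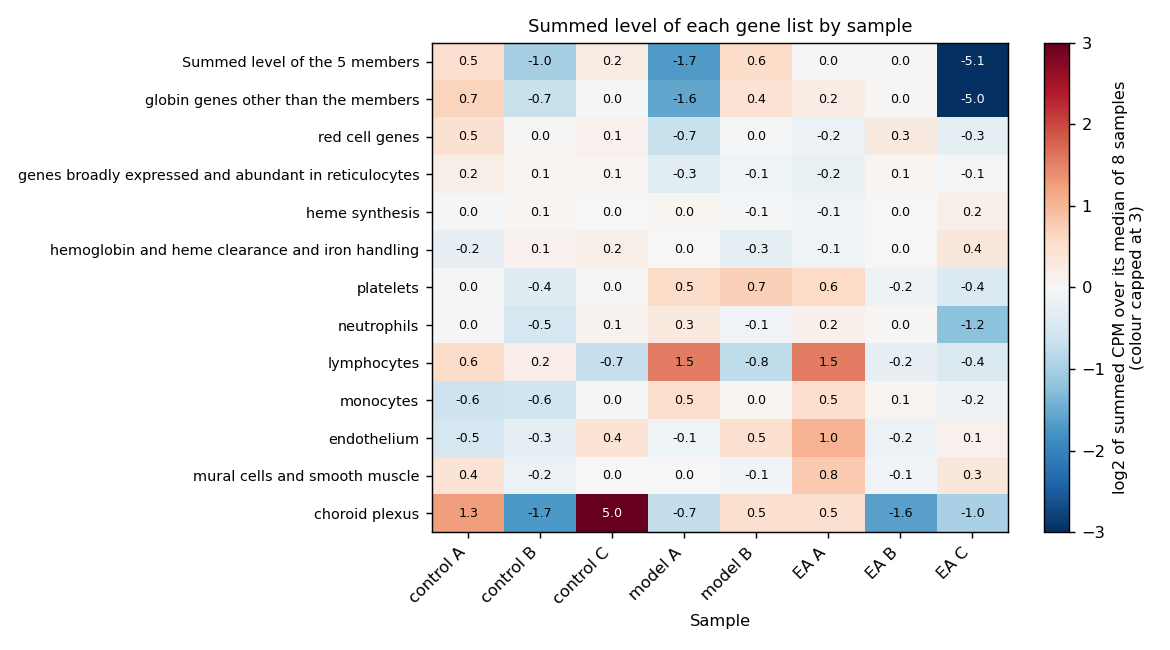
Summed level of the 5 genes and of each gene list in the 8 samples, as log2 of summed CPM over its own median of the 8 samples (EA: electroacupuncture). The 5 genes and the other globin rows are lowest in electroacupuncture C (-5.15 and -4.99), where neutrophil genes are also lowest (-1.23) and heme synthesis genes are near their median (0.16). A sum can rest on 1 abundant gene. Add2, which neurons also express, gives 126 of the 137 CPM of the red cell list in electroacupuncture C. Cd4 gives 79.8 of the 86.3 CPM of the lymphocyte list in model A.

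Of 13 tested heme synthesis genes other than Alas2, 1 was lowest in electroacupuncture C: Uros, named after its values were seen, at 5.91 CPM against 6.38 to 9.01 CPM in the others. In the list 0 were called, with 3 higher in estimate in the model than in controls (median log2 difference -0.09) and 10 higher with electroacupuncture than in the model (median 0.16). Their summed level was 398 to 423 CPM in controls, 390 to 420 CPM in model samples and 371 to 455 CPM with electroacupuncture. Urod, which makes coproporphyrinogen, measured 43.7 CPM in electroacupuncture C and 29.8 to 42.2 CPM in the others. Cpox, the next enzyme of the pathway, measured 42.3 CPM there and 27.5 to 44.4 CPM in the others. The porphyrin transporter Abcb6 (71.2 to 135 CPM) and the mitochondrial protein Tmem14c (57 to 69.1 CPM) stood at 109 and 67.2 CPM there.

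Genes that take up hemoglobin and heme or store iron gave 0 calls among 18 tested. In the model 8 were higher in estimate than in controls (median log2 difference -0.18), and with electroacupuncture 9 were higher than in the model (median -0.01). Hmox1, the heme-degrading enzyme induced by heme and by stress, measured 6.965, 7.957 and 6.505 CPM in controls, whereas model samples had 19.29 and 8.868 CPM, so both model samples lay above every control. Such a lack of overlap between model and control samples was found in 37.8% of all tested genes. With electroacupuncture it measured 13.53, 6.589 and 7.593 CPM. The difference of 0.98 (log2, SE 0.41) between model and control did not pass (adjusted p = 0.354, edgeR). Its highest sample, model A, was the second lowest in globin RNA.

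The binding proteins of free hemoglobin and heme were low. Haptoglobin (Hp) measured 10.4 to 13.1 CPM in controls, 6.97 and 8.92 CPM in model samples and 5.81 to 14.9 CPM with electroacupuncture (model minus control -0.56 log2, adjusted p = 0.553, edgeR). Hemopexin (Hpx) stayed between 0.316 and 1.02 CPM, and Cd163, the haptoglobin-hemoglobin receptor of macrophages, between 0.425 and 1.13 CPM. Lrp1, a receptor for hemopexin-bound heme, measured 222 to 382 CPM. The ferritin chains Fth1 and Ftl1 measured 2350 to 4410 CPM and 500 to 977 CPM, with Fth1 highest in electroacupuncture C and Ftl1 highest in model A. Transferrin (Tf), which oligodendrocytes also make, measured 193 to 682 CPM.

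Among markers of other blood cells, 4 of 7 tested neutrophil genes were lowest in electroacupuncture C. The summed neutrophil level was 11.1 CPM there, against 18.2 to 28 CPM in controls, 24.2 to 31.8 CPM in model samples and up to 29.1 CPM with electroacupuncture. S100a9, a calcium-binding protein abundant in neutrophils, measured 0.738 CPM in electroacupuncture C and 2.86 to 4.93 CPM in the others. Its partner S100a8 and the granule gene Ngp, both named after their values were seen, were at 0 counts there and between 0.455 and 2.29 CPM in the others. The floor of 3 counts in electroacupuncture C is 0.316 CPM, close to the lowest of these values (0.455 CPM, control B). The receptor Csf3r, which microglia also express, was at 5.17 CPM there and 6.96 to 18.2 CPM in the others, Mmp9 at 1.9 CPM against 0.26 to 5.87 CPM, and Lcn2 at 1.16 CPM against 1.14 to 10.2 CPM. Of 7 tested neutrophil genes, 0 were called, and the part of white cells in the globin result was not tested.

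The summed level of platelet genes was lowest in electroacupuncture C by little, at 5.27 CPM. It was 5.57 to 7.33 CPM in controls, 10.4 to 11.8 CPM in model samples and up to 10.8 CPM with electroacupuncture. Singly, 0 of the 4 platelet genes tested were lowest in electroacupuncture C, against 9.63% of all tested genes, and 0 were called. Pf4 ran from 0.468 to 1.93 CPM, Itga2b from 1.14 to 7.37 CPM, Treml1 from 0.455 to 2.74 CPM and Gp5 from 0 to 1.83 CPM. Sums of the lymphocyte and monocyte lists were lowest in other samples. Of 3 lymphocyte genes tested 0 were called. Cd3e, a chain of the T cell receptor complex, measured 8.15 to 29.4 CPM in controls, 0.0536 and 0.219 CPM in model samples and 0.954 to 10.2 CPM with electroacupuncture (model minus control, edgeR adjusted p = 0.125), while Cd3d, Cd3g, Cd2 and Cd5, other T cell markers on the list named after their values were seen, lay at 0 to 0.438 CPM in every sample. Cd4, which rat microglia also carry, was highest in model A (79.8 CPM) and electroacupuncture A (81.5 CPM). Lck stayed low (0.954 to 2.63 CPM). Of 4 monocyte genes tested 0 were called; Vcan ran from 20.1 to 44.2 CPM, Cd14 from 1.87 to 6.59 CPM, F10 from 0.183 to 4.82 CPM and Plac8 from 0 to 1.56 CPM.

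Vessel genes gave 0 calls as well, in 15 endothelial and 9 mural genes tested. The endothelial sum was 311 to 580 CPM in controls, 399 to 614 CPM in model samples and 388 to 902 CPM with electroacupuncture, highest in electroacupuncture A. Cldn5, a tight junction protein, measured 56 CPM in electroacupuncture C and 38.5 to 99.2 CPM in the others. Flt1 (33.5 to 106 CPM), Vwf (28.5 to 80.8 CPM) and Slc2a1 (75.5 to 321 CPM) likewise had no low point there, at 37.2, 38.8 and 174 CPM. The electroacupuncture C sample thus held endothelial RNA at the level of the other samples and red cell RNA far below them. Of the mural genes, Pdgfrb ran from 16.4 to 40.8 CPM, Myh11 from 15.5 to 46.5 CPM and Cspg4 from 8.98 to 39 CPM. Tagln, a smooth muscle gene, measured 22.8 to 32.6 CPM in controls, 14.6 and 8.05 CPM in model samples and 21.6 to 33.2 CPM with electroacupuncture (model minus control -1.21 log2, edgeR adjusted p = 0.188).

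Choroid plexus genes, included because that tissue is rich in blood, were far apart between samples but not in the order of globin. Ttr, its main secreted protein, reached 1340 CPM in control C and ran from 3.36 to 86.4 CPM in the other 7. Otx2 (0.211 to 3.39 CPM) was lowest in electroacupuncture C, while Folr1 ran from 0.438 to 9.02 CPM and Kcne2 from 3.97 to 9.8 CPM. Of 9 tested genes, 0 were called.

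Across all tested genes, few tracked the red cell genes. With the mean log2 CPM of all 5 genes as the reference, the 10 genes of highest Pearson's r over 8 samples were LOC689064 (0.954), Vma21, Pnma8a, Vom2r31, LOC100134871, Uggt1, Mnt, Hba2, Hba1 and Hemgn (0.92). Counts of genes by r are over all tested genes and do not leave out the 5, while the leading 10 do. An r above 0.9 was reached by 19 of 15487 genes (0.123%) and by 5 of the 7 other globin rows. Without electroacupuncture C it was reached by 9 genes and by 0 of the 7 rows, whose median r went from 0.92 to 0.73. Since Hba-a1 was at or near 0 in samples with high globin, the reference was also taken without it, a choice made after seeing the data. The leading 10 genes then included Hba1 (0.994), Hemgn (0.99), Hba2 (0.982), Lgals5 (0.966), Alox15 (0.964), LOC689064, Vom2r31, LOC103694855 and Uggt1 (0.945).

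Lgals5 encodes a galectin of rat reticulocytes and Alox15 the lipoxygenase that helps reticulocytes lose their mitochondria. The level of Lgals5 was 25.4, 11.6 and 20.5 CPM in the controls, 7.88 and 17.2 CPM in model samples and 17.9, 12.8 and 0.422 CPM with electroacupuncture. The level of Alox15 was 19.9, 6.14 and 12.6 CPM in the controls, 4.93 and 12.4 CPM in model samples and 12.5, 27.2 and 1.16 CPM with electroacupuncture. Neither was on a list, and both are named after their values were seen, for their high r over these same samples. Both had model A among the low samples and electroacupuncture C lowest. Such a pattern follows from how they were picked and is no separate support.

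**Figure D4:**
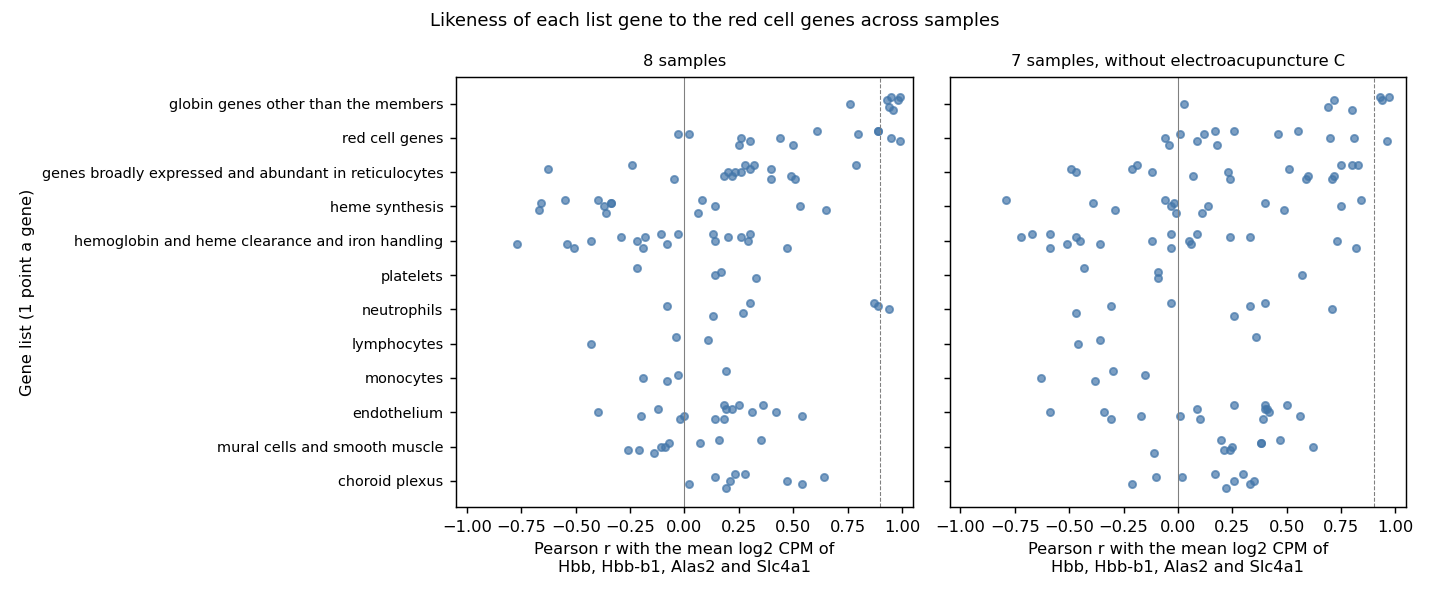
Pearson's r of each tested list gene with the mean log2 CPM of Hbb, Hbb-b1, Alas2 and Slc4a1, over 8 samples (left) and without electroacupuncture C (right); the dashed line is r = 0.9. Of the 7 other globin rows, 6 lie above 0.9 on the left and 3 on the right, and heme synthesis genes spread on both sides of 0.

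Much of this likeness rests on electroacupuncture C. With the reference of 4 genes, 28 genes (0.181%) had an r above 0.9 over 8 samples and 61 (0.394%) over the 7 without it. The genes of the reference are not left out of these counts. Of the leading 10, 2 stayed among the leading 10 without electroacupuncture C, Hba1 (0.971) and Hemgn (0.964). The others that then led were genes of brain cells at large, such as Pip4k2b (0.991, named after its value was seen), whose level ran from 128 to 160 CPM. Median r of the other globin rows was 0.95 over 8 samples and 0.80 over 7, and that of the 13 red cell genes 0.50 and 0.18, against -0.02 and -0.02 over all genes. The neutrophil list had a median r of 0.30 and 0.26 and the heme synthesis list of -0.34 and -0.01.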

How the data were processed

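Poly(A)-selected, strand-marked RNA libraries were sequenced, per the labels' protocols. The authors deposited expected counts (estimated reads per gene, partly fractional), with no normalization, in 18804 rows and 11 columns. The submitters' processing notes name DESeq2 1.16.1, featureCounts 1.5.0-p3, StringTie 1.3.3b and HISAT2 2.0.5; not given in the sources used here were their roles, the genome build and the counting of reads that match several genes.

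Columns named Sham were taken as controls, with 3 columns for 4 labelled samples. Symbols on 2 rows (4) were summed, and column pairs under 2 times the sampling variance were summed. All columns as separate libraries were an alternative. Values were rounded and fitted with edgeR 4.0.16 (R 4.3.3, TMM, quasi-likelihood, robust, 8 samples in 1 fit, 5 residual degrees of freedom); 15487 genes passed the default filter. DESeq2 1.42.0 was an alternative. The fit was run on simulated data with a smaller spread than these samples have, so that run does not measure its power here. Log2 CPM used a prior count of 2. Totals per sample ran from 9335913 to 23835724 counts.

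The 5 genes and the lists were chosen with earlier results of these data known. Genes named are the 5, from each list every called gene and the 4 of highest mean CPM, the 10 most like the 5, and Hmox1, Hp, Hpx and Cd163; others are said to be named after their values were seen. A few genes that this rule names are not reported here.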

Additional observations from a re-analysis of the deposited data

How the results depend on the processing

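Counts of called genes depended on the tool and on how columns were treated, and the cause was not tested. Model against control gave 1 called gene by edgeR, 763 by DESeq2, 0 with total counts in place of TMM, and 1129 with all columns as separate libraries. Electroacupuncture against model gave 0, and 689 by DESeq2 and 1666 with all columns. Electroacupuncture against control gave 0, and 1 by DESeq2. Leaving out 1 sample gave 0 to 565 calls in model against control and 0 to 308 in electroacupuncture against model; 356 and 308 came without model A, 565 and 278 without electroacupuncture A. Genes of the blood, heme, iron and vessel lists were called by DESeq2 in 3 cases each (Cd3e, Ireb2 and Tagln in model against control, Cd3e, Tagln and Tent5c in electroacupuncture against model), by all columns in 3 and 7, and by 0 to 2 with 1 sample left out in each of these comparisons (Ireb2 among them without model A, Cd3e and Epb41 without electroacupuncture A).

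Correlations of same-numbered columns ran from -0.16 to 0.19 over 10 pairs, some of which share near-identical columns. No differently numbered columns are set beside them here, so whether column numbers pair the samples cannot be told. A replicate block on the column number, with all columns as separate libraries (a combination chosen after seeing the data), called 471 and 876 genes, and 2 and 3 list genes, in the same 2 comparisons, and 0 against control with electroacupuncture.

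Of 210 refits of the log2 differences of the 5 genes, 208 moved by less than the spread between samples. The other 2 were Hba-a1 without electroacupuncture B, at -4.77 against the model and -3.93 against control. Of the 10 genes most like the 5, 8 remained with a prior count of 0.5, 6 with all columns, 2 with group means subtracted, 0 without electroacupuncture C, 6 with Hba-a1 left out of the reference and 2 with both Hba-a1 and electroacupuncture C left out; the last 3 were chosen after seeing the data. Depth limits electroacupuncture C, where Alas2 and Slc4a1 rest on 8 and 6 counts.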
